A study of Mus musculus with 8 samples.

Results

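The genes described here are 51 mouse genes of the mitotic chromosome and spindle machinery: kinetochore subunits, spindle checkpoint proteins, the chromosomal passenger complex, condensin with topoisomerase II, the separase pathway, spindle proteins and the cytokinesis apparatus. They were chosen by name, as the rows of the expression table that carry their symbols, and all 51 were present among its 34432 rows. The cells were bone marrow-derived macrophages, grown in culture from marrow precursors and collected untreated on day 7 of differentiation. The control group (4 libraries) carried the Vav-Cre transgene, in which the Vav promoter drives Cre recombinase in the blood lineage. The double knockout group (DKO, 4 libraries) carried Vav-iCre, a floxed Cdk8 gene on both alleles and a null Cdk19. Both groups therefore carried a Vav-driven Cre, and the DKO libraries differed from the controls at both kinase genes, whose separate parts cannot be told apart. The ages and number of mice and any pooling of marrow were not given in the sources used here. The comparison asks how expression differs between macrophages with and without the paired Mediator kinases CDK8 and CDK19.

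In mitosis, kinetochores assemble on centromeric chromatin and bind spindle microtubules, while the spindle checkpoint holds the anaphase-promoting complex (APC/C) inactive until every chromosome is attached. Condensin and topoisomerase II compact and disentangle the chromosomes, separase then cuts the cohesin rings that hold sister chromatids together, and a contractile ring at the spindle midzone divides the cell. Many of these genes are transcribed in G2 and M phase, through promoters in which the DREAM and MuvB complexes act on a CHR element and NF-Y acts on CCAAT boxes. Cultured macrophages divide in response to colony-stimulating factor and leave the cell cycle as they mature.

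The promoters of 7 genes on which the results turn are shown, since they represent some of the largest falls (Sgo2a, Prc1, Cenpf), a condensin I subunit that fell with its condensin II counterpart that rose (Ncapg, Ncapg2), a checkpoint gene that did not pass the test (Bub3) and the member that rose (Pttg1). Each run is 300 bases of RefSeq sequence (GRCm38.p6), from 250 bases before to 50 bases after a transcript start, written from 5′ to 3′ on the strand of the gene. Capitals mark matches on either strand to the CHR core TTTGAA, to CCAAT, or to the E2F motifs TTTCCCGC and TTTGGCGC.
Sgo2a, chr1:57995724-57996023, plus strand: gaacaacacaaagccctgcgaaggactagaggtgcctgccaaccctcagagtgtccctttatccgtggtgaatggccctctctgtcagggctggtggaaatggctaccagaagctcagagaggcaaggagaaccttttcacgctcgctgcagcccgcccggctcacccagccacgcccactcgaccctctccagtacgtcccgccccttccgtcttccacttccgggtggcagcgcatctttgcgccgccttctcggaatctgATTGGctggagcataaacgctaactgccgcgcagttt
Prc1, chr7:80294201-80294500, plus strand: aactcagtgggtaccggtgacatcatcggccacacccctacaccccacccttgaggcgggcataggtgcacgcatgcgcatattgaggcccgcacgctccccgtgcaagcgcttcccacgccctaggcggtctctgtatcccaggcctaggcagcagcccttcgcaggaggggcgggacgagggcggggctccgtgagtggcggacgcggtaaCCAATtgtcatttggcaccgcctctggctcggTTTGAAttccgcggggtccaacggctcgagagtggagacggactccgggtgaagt
Cenpf, chr1:189688037-189688336, minus strand: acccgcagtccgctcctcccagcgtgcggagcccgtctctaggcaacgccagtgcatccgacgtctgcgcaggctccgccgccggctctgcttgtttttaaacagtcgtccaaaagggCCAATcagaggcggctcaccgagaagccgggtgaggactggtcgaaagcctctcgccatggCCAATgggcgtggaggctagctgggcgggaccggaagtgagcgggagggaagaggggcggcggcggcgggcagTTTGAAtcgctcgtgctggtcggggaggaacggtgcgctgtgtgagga
Ncapg, chr5:45669675-45669974, plus strand: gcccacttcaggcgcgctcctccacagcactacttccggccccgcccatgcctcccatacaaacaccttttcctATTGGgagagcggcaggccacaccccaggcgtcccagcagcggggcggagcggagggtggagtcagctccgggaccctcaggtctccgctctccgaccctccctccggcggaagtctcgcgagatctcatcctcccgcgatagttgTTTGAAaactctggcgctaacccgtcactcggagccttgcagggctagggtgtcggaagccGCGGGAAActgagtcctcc
Ncapg2, chr12:116405186-116405485, plus strand: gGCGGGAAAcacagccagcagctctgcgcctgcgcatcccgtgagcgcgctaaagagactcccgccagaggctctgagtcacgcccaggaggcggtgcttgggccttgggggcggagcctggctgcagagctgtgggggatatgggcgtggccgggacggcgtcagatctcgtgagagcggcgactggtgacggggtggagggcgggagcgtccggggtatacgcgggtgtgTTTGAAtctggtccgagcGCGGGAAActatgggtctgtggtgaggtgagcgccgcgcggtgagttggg
Bub3, chr7:131560120-131560419, plus strand: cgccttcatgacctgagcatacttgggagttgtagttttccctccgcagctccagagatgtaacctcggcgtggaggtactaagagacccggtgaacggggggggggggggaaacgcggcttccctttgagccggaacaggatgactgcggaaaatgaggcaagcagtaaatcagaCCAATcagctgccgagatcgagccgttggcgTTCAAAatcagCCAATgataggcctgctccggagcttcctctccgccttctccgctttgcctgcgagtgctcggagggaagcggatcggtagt
Pttg1, chr11:43425932-43426231, minus strand: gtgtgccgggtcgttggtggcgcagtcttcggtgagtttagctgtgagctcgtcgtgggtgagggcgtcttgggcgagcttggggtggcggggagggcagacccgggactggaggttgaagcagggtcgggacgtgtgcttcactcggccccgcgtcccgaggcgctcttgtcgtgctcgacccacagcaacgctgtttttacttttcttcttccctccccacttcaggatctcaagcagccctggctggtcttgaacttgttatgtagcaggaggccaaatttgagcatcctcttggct
Prc1 held a CCAAT box on the gene's strand from position -37 and a CHR from position -5, counted from the start site. Cenpf held CCAAT boxes from -132 and -71 and a CHR from position 3. The Ncapg window held a CCAAT box, a CHR and an E2F motif, and that of Ncapg2 a CHR and 2 E2F motifs but no CCAAT letters. Bub3, whose start site lies 148 bases from the gene's 5′ end in GENCODE, also held a CHR and 2 CCAAT boxes. Sgo2a, Prc1 and Bub3 each had 2 windows, of which the one nearest that end is shown. The Sgo2a window held 1 CCAAT box and no CHR letters, and the Pttg1 window held none of the motifs. The Pttg1 start site lies 270 bases downstream of the gene's 5′ end in GENCODE, and its whole window lies inside the annotated gene. Sequence upstream of that end was therefore not searched for Pttg1.

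Over all members, 45 of 51 had a promoter in the RefSeq table, with 51 windows between them, and Spc24, Incenp, Smc4, Aurkb, Tpx2 and Esco2 had none there. The CHR letters occurred in 29 of the 51 windows (56.9%), against 17.9% of all 32851 promoter windows and 12.4% of those of the tested genes. CCAAT occurred in 39 windows (76.5%), against 37.4% of all and 37.9% for tested genes. Both together occurred in 27 (52.9%), against 6.95% of all and 5.07% for tested genes. An E2F motif occurred in 5 (9.80%), against 1.56% of all and 2.98% for tested genes. CHR and CCAAT matches overlapped each other 47 times in all promoters, and E2F matches overlapped another motif 2 times. Among the related lists described below, CHR occurred in 66.7% of windows of the other mitotic regulators and 34.8% for the other kinetochore genes. For condensin II (4 windows), the cohesin list and the APC/C list it was 50%, 22.2% and 11.8%. CHR and CCAAT together occurred in 45.8% for the regulators, 21.7% for the kinetochore genes, 22.2% for cohesin and 0% for the rest. All of these are matches of letters and describe sequence, not binding.

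Recovered depth was 17856715 to 21353207 reads per library. Within the DKO group, libraries 1 and 2, and libraries 3 and 4, were closer to each other (chi-square per gene 8.20 and 9.29) than libraries across these pairs (19.5 to 26.7), so the 4 may not be independent, and control pairs ranged from 9.43 to 38.2. The labels do not say whether replicates were separate animals or cultures, and the p-values here therefore reflect the spread of these samples alone, which could be technical. Cdk19 stood at 1452 ± 189 (SD, n = 4) in the controls and 373 ± 25.8 in the DKO libraries (limma adjusted p = 2.95e-08). Cdk8 stood at 439 ± 24.5 and 347 ± 60.8, with overlapping groups and an adjusted p of 0.0374 that held in 8 of 19 alternatives, and a gene total does not check the deletion of floxed exons. All 12 macrophage markers were detected and tested. Lyz2, Csf1r (log2 -0.80), Adgre1, Itgam and Fcgr1 (5) were lower. C1qa, C1qb, C1qc, Cd14, Cd68, Mertk (log2 1.08) and Mrc1 (7) were higher. Over all genes tested 23.8% were lower and 22.9% higher. The 12 markers summed to 389682 to 422971 in the controls and 348104 to 372341 in the DKO libraries. Lyz2 held the largest part, with means of 160549 and 96662, so the lower sum does not describe the 7 that rose.

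Most of the 51 genes were lower in the DKO macrophages. Of these genes, all of which passed the filter on low values, 48 were lower, 1 (Pttg1) was higher and 2 (Bub3 and Cenpt) did not pass the limma test at an adjusted p of 0.05. For all genes tested, 23.8% were called lower and 22.9% higher. The lower calls were large: 47 members were lower by at least 2-fold, 37 by at least 4-fold and 12 by at least 8-fold, where 7.20%, 2.75% and 0.831% of all genes tested passed the same rules. The median log2 fold change of the members was -2.50, against 0.01 for all genes tested. In 47 members every DKO value lay below every control value, a state found in 21.7% of all genes tested. On the recovered reads, edgeR and DESeq2 each called 47 members lower and 1 higher, where they called 23.8% and 21.7% of all genes lower and 22.2% and 20.8% higher. Of the 200 genes with the largest falls, 25 were members.

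Together the 51 genes took 2485, 2551, 2632 and 2612 per 1000000 recovered reads in control libraries 1 to 4, and 685, 653, 673 and 675 in DKO libraries 1 to 4. The 2 groups were far apart and each was narrow. Without Top2a, the member with the most reads in the controls, the sums were 2214 to 2351 and 624 to 648 on the same scale. In bulk RNA, fewer dividing cells and less of each transcript per dividing cell cannot be told apart.

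**Figure D1:**
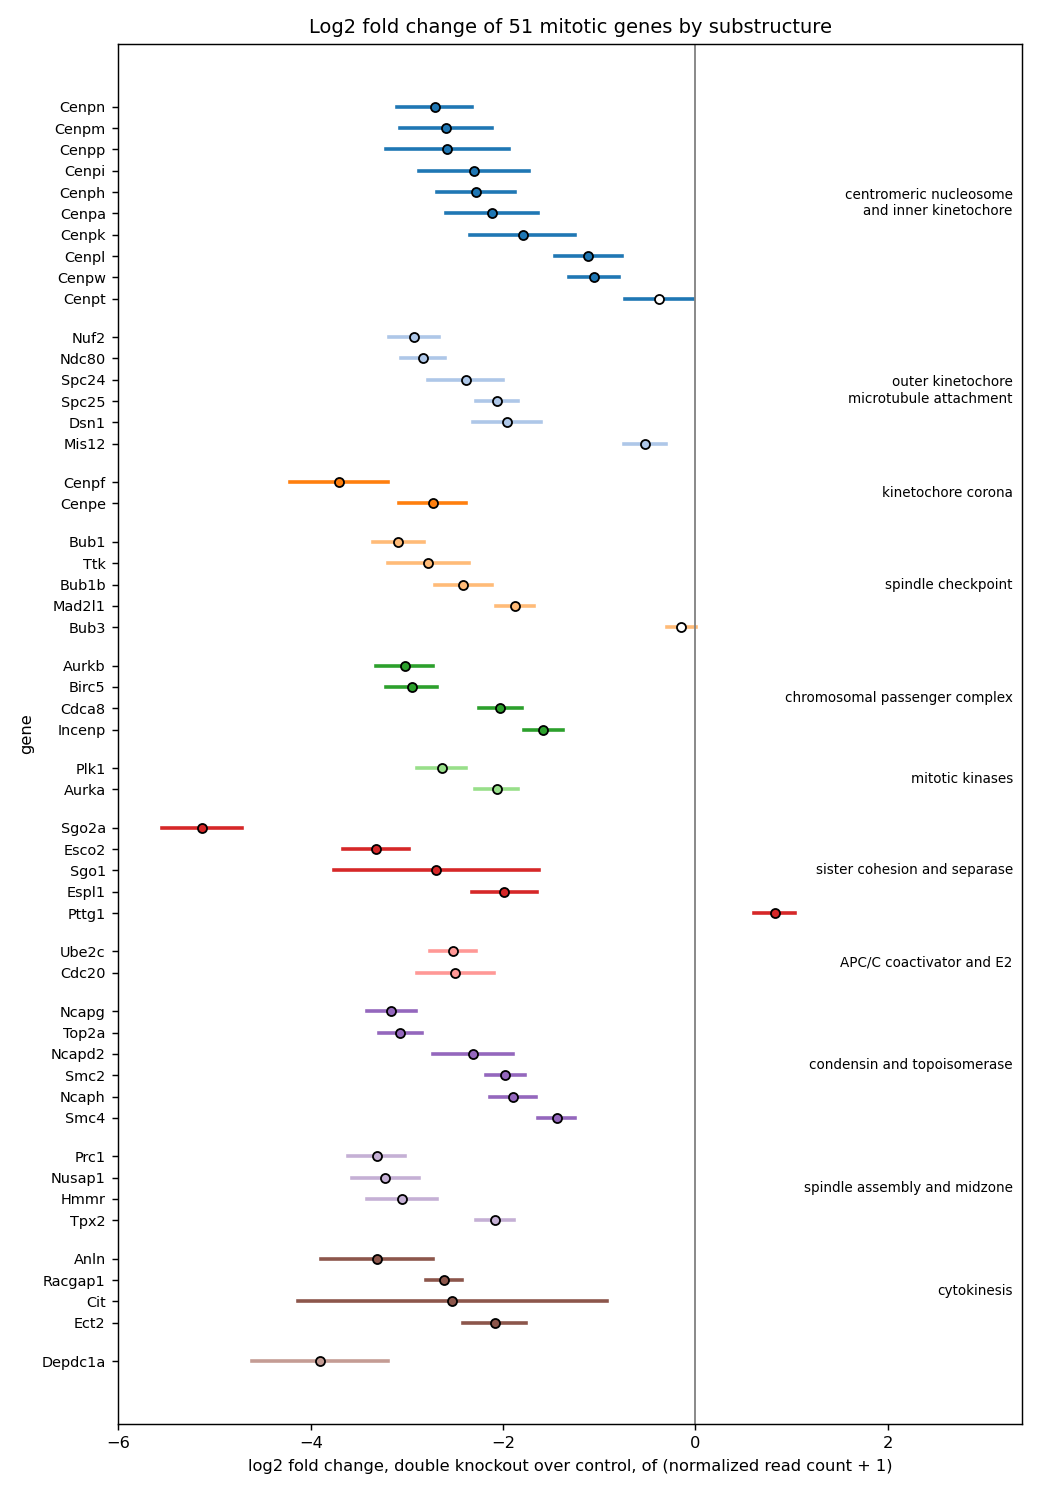
Log2 fold change (DKO minus control) of each of the 51 genes, grouped by substructure, with 95% intervals from limma; open circles did not pass the test. Pttg1 at 0.82 is the point right of zero that passed, Sgo2a at -5.13 is the farthest left, and Cit has the widest interval.

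Some markers of other bone marrow cells, mostly in the neutrophil and monocyte lists, moved with genotype in the same libraries. Of 12 neutrophil and granule genes 10 were tested and 9 were lower, where 23.8% of all genes tested were lower. Among these calls, Mpo held in 11 of 19 alternatives, Elane in 10 of 18 and Mmp8 in 8 of 18. The groups of Mpo and Elane overlapped. The list summed to 2016 to 3576 in the controls and 503 to 815 in the DKO libraries, and Ly6g was at or below 1 throughout. Of 9 monocyte genes 5 were lower and Nr4a1 was higher, with a sum of 15812 to 16613 against 3056 to 3719, led by Cx3cr1. Of 8 progenitor genes 4 were tested, of which Cd34 was lower and Sox4 higher, with a sum of 1417 to 1473 against 1719 to 1869, and Mecom was at 0 in all libraries. Lymphocyte markers summed to 45.5 to 68.8 in the controls and 138 to 193 in the DKO libraries: Cd4 was higher, at 13.5 to 34.7 against 113 to 154 (log2 2.53, limma adjusted p = 1.9e-05), Cd8a did not pass, and Cd3e and Cd3g were at 0 throughout. Mast cell and basophil markers summed to 14.4 to 55.0 against 1.0 to 18.1, with Hdc at 8.70 to 28.0 against 1.0 to 8.04, Cpa3 up to 21.2 and Mcpt4 at 0, and none was high enough to test. Erythroid markers summed to 1.11 to 8.70 against 7.00 to 23.4, with Epor up to 19.5 and Hba-a1 and Hbb-bs at 0. Stromal markers summed to 229 to 328 against 99.4 to 281, with Col1a2 lower (called in 6 of 19 alternatives) and Lum at 0, and dendritic cell markers to 57.7 to 89.7 against 33.1 to 66.3, with Cd209a at 0. The part of these cells in the fall of the mitotic genes was not tested.

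At the centromere and inner kinetochore, the platform built on CENP-A nucleosomes, 9 of 10 genes fell (median on the log2 scale -2.20). Cenpn, which reads the CENP-A nucleosome, stood at 353, 357, 293 and 354 in the controls and at 50.5, 49.3, 39.0 and 68.2 in the DKO libraries. The groups did not overlap, and the log2 fold change was -2.71 ± 0.18 (SE; limma adjusted p = 2.26e-07). Cenpm (-2.59), Cenpp (-2.58), Cenpi (-2.31) and Cenph (-2.28), other subunits of the constitutive centromere network, lay close to it. Cenpa, the centromeric histone H3 variant itself, was at 806 ± 93.2 (SD, n = 4) in the controls and 195 ± 81.3 in the DKO libraries, where library 3 (316) was the highest of the group. Cenpk changed by -1.80 and Cenpl by -1.11. The smallest change that passed was in Cenpw, the histone-fold partner of CENP-T, at 302, 271, 249 and 274 against 137, 133, 124 and 129. Its groups were also separate, with a change of -1.06 ± 0.12 (limma adjusted p = 2.06e-05). Cenpt, which links centromeric DNA to the NDC80 complex, was at 255, 258, 293 and 230 in the controls and at 167, 172, 270 and 198 in the DKO libraries. DKO library 3 lay among the controls, and the change of -0.38 ± 0.16 did not pass (limma adjusted p = 0.0717), though it passed without that library (adjusted p = 0.0097) and with scaling to library totals, and its adjusted p ranged up to 0.178 over the alternatives.

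In the outer kinetochore, which grips the microtubule, all 6 genes fell, with a median of -2.23. Nuf2 was at 857, 920, 914 and 786 in the controls and at 116, 94.5, 119 and 127 in the DKO libraries. Ndc80, its partner in the rod of the NDC80 complex, was at 849, 984, 904 and 794 and at 129, 128, 118 and 116. The groups of both genes were far apart, with changes of -2.93 ± 0.12 and -2.83 ± 0.10 (limma adjusted p = 3.80e-09 and 1.88e-09). Spc24 (-2.39) and Spc25 (-2.06) form the other end of that complex. Mis12 and Dsn1 belong to the MIS12 complex, which joins the NDC80 complex to the centromere. Dsn1 was at 260, 305, 328 and 261 against 63.1, 71.4, 93.0 and 67.2, a change of -1.96 ± 0.16 (limma adjusted p = 1.48e-06). Mis12 was at 1162, 1384, 1469 and 1505 against 1115, 934, 890 and 898. Its groups came close but did not overlap, and the change of -0.52 ± 0.10 (limma adjusted p = 0.0013) was the smallest fall in a member that passed.

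The fibrous corona, the outermost layer that captures microtubules before attachment, had 2 members. Cenpf, a large coiled-coil protein of G2 and M phase, was at 1314, 592, 712 and 680 in the controls and at 58.3, 64.3, 71.0 and 45.8 in the DKO libraries. Control 1 was far above the other controls, and even the lowest control was well above all DKO libraries, at -3.71 ± 0.23 (limma adjusted p = 1.61e-07). Cenpe, the kinesin that carries chromosomes toward the spindle equator, was at 1253, 1197, 1108 and 832 against 164, 174, 125 and 194. The groups were again separate (-2.73 ± 0.16, limma adjusted p = 7.23e-08).

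Spindle checkpoint genes split: 4 of 5 fell and Bub3 did not pass. Bub1, the kinase that loads the checkpoint onto kinetochores, was at 648, 753, 827 and 829 in the controls and at 97.1, 82.4, 90.0 and 84.8 in the DKO libraries. The groups did not overlap (-3.09 ± 0.12, limma adjusted p = 2.73e-09). Ttk, the MPS1 kinase that starts checkpoint signalling, changed by -2.78. Bub1b, which encodes the BUBR1 part of the checkpoint complex that binds CDC20, was at 748, 1064, 999 and 1062 against 204, 194, 159 and 163 (-2.42 ± 0.14, limma adjusted p = 5.48e-08). Mad2l1, the MAD2 protein of the same complex, changed by -1.87. Bub3, the propeller protein that carries both BUB1 and BUBR1 to the kinetochore, was at 2716, 2783, 2774 and 2568 in the controls and at 2278, 2270, 2662 and 2609 in the DKO libraries. DKO libraries 3 and 4 lay within the control range, and the change was -0.15 with a 95% interval of -0.30 to 0.01 (limma adjusted p = 0.108). It passed with scaling to library totals, at -0.20 (adjusted p = 0.0249, where the other alternatives reached 0.262).

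**Figure D2:**
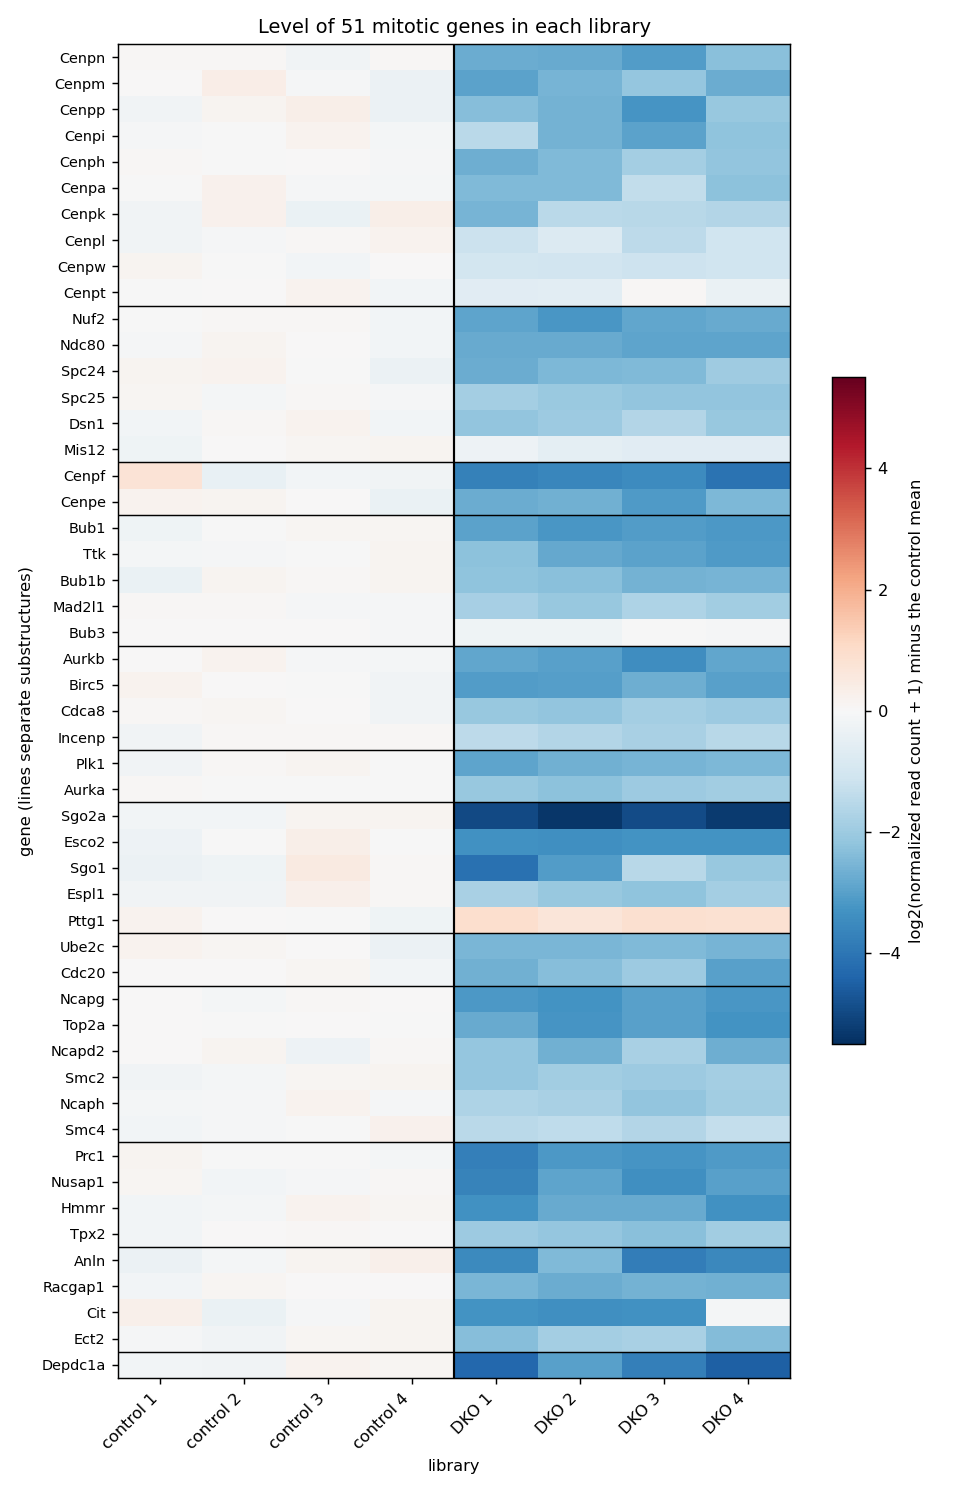
Level of each of the 51 genes (rows, grouped by substructure) in each of the 8 libraries (columns), as log2(normalized value + 1) minus the mean of the controls, with blue for lower and red for higher. Most cells of the DKO columns are blue, the row of Pttg1 is red, and the palest cells include those of Bub3, Mis12 and Cenpt and that of Cit in DKO library 4.

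All 4 genes of the chromosomal passenger complex, which corrects faulty attachments and later marks the midzone, were lower (median -2.49). Aurkb, its kinase, was at 989, 1103, 935 and 897 in the controls and at 135, 123, 92.0 and 133 in the DKO libraries (-3.03 ± 0.13, limma adjusted p = 8.07e-09). Birc5, or survivin, which targets the complex to the centromere, was at 1174, 1026, 1008 and 881 against 121, 124, 155 and 126 (-2.95 ± 0.12, limma adjusted p = 4.08e-09). Neither gene's groups overlapped. Incenp, the scaffold, was at 1886, 2276, 2273 and 2261 and at 808, 715, 637 and 745. It kept more of its control level (33.4%) than Aurkb (12.3%) or Birc5 (12.9%), with a change of -1.58 ± 0.09 (limma adjusted p = 7.11e-08). Cdca8, the borealin subunit, changed by -2.03.

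The mitotic kinases Plk1 and Aurka act at centrosomes, on the spindle and at mitotic entry. Plk1 was at 808, 956, 1014 and 890 in the controls and at 122, 147, 155 and 162 in the DKO libraries (-2.64 ± 0.12, limma adjusted p = 8.34e-09). Aurka was at 790, 751, 744 and 733 against 175, 157, 188 and 200 (-2.07 ± 0.10, limma adjusted p = 1.92e-08). Both were separate between groups.

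Sister chromatid cohesion and its release held both the largest fall and the rise. Sgo2a, a shugoshin that protects centromeric cohesin, lies at chr1:57995971-58025899 on the plus strand of mm10 and was at 408, 413, 503 and 502 in the controls and at 13.6, 10.1, 14.0 and 10.7 in the DKO libraries. The DKO mean was 2.65% of the control mean, and the change was -5.13 ± 0.19 (limma adjusted p = 1.88e-09), the third largest fall of all genes tested. Its exons share 2455 bases with Kctd18 on the opposite strand, and the use of strand in counting was not given in the sources used here. Kctd18 itself was at 282 ± 40.5 (SD, n = 4) in the controls and 336 ± 37.2 in the DKO libraries and did not pass (limma adjusted p = 0.135), and the related gene Sgo2b was at 0 in all libraries. Sgo1, the other shugoshin, was at 199, 206, 348 and 258 against 13.6, 28.1, 86.0 and 56.5. Its DKO values spread widely below the control range, with a change of -2.69 ± 0.48 (limma adjusted p = 0.00112). Esco2, the acetyltransferase that makes cohesin cohesive in S phase, was at 336, 397, 509 and 407 against 39.8, 38.2, 41.0 and 40.9, the narrowest DKO group of all members (coefficient of variation 3.29%). Its change was -3.32 ± 0.16 (limma adjusted p = 1.32e-08).

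Separase and securin moved in opposite directions. Espl1, which encodes separase, was at 357, 356, 498 and 431 in the controls and at 117, 96.5, 86.0 and 111 in the DKO libraries, a change of -1.99 ± 0.15 (limma adjusted p = 8.45e-07). Pttg1, which encodes securin, the inhibitor and chaperone of separase, lies at chr11:43420250-43426251 on the minus strand and was at 750, 663, 643 and 556 in the controls and at 1218, 1039, 1200 and 1154 in the DKO libraries. The groups did not overlap, a state found with DKO higher in 21.2% of all genes tested. The rise was 0.82 ± 0.10 on the log2 scale, or 1.77-fold (limma adjusted p = 3.32e-05), and it was called in each of the 19 alternatives. Per kilobase of exon, Pttg1 ranked 12 of 51 in the controls (327 per kilobase) and 1 of 51 in the DKO libraries (576 per kilobase). Length here is that of all annotated exons of a gene together, not of the transcript expressed, so ranks between genes are approximate. Bub3 was next in the DKO order (350 per kilobase), then Mis12 (319), while Top2a moved from 1 (602) to 10 (72.3).

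Ube2c, the ubiquitin-conjugating enzyme that works with the APC/C, was at 1339, 1281, 1207 and 962 in the controls and at 205, 205, 217 and 200 in the DKO libraries (-2.52 ± 0.11, limma adjusted p = 6.85e-09). Cdc20, the mitotic activator and the target of the checkpoint, was at 629, 635, 678 and 572 against 99.0, 123, 155 and 78.0 (-2.50 ± 0.18, limma adjusted p = 5.56e-07). Both pairs of groups were separate.

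All 5 condensin genes and Top2a fell (median -2.15). Ncapg, a HEAT-repeat subunit found in condensin I, was at 662, 603, 675 and 661 in the controls and at 71.8, 65.3, 81.0 and 69.2 in the DKO libraries (-3.16 ± 0.12, limma adjusted p = 1.88e-09). Ncaph, the kleisin of condensin I, was at 1266, 1293, 1530 and 1305 against 415, 386, 301 and 354 (-1.89 ± 0.11, limma adjusted p = 7.02e-08). Ncapd2, the other HEAT-repeat subunit, was at 1651, 1812, 1341 and 1705 against 365, 256, 472 and 248 (-2.32 ± 0.19, limma adjusted p = 2.24e-06). None of these subunits overlapped between groups. Smc2 and Smc4 are the ATPase arms shared by condensin I and II. Smc2 was at 2199, 2329, 2719 and 2754 against 569, 659, 629 and 672 (-1.98 ± 0.09, limma adjusted p = 1.09e-08). Smc4 was at 2246, 2373, 2423 and 2869 against 895, 929, 813 and 996 (-1.44 ± 0.09, limma adjusted p = 1.31e-07), the smallest change of the substructure. Top2a, which disentangles sister DNA, changed by -3.07.

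In spindle assembly and the midzone all 4 genes were lower, with the median at -3.14. Prc1, which bundles antiparallel microtubules at the midzone, was at 1679, 1506, 1511 and 1417 in the controls and at 113, 172, 159 and 174 in the DKO libraries. This was a change of -3.32 ± 0.14 with no overlap (limma adjusted p = 4.23e-09). Nusap1 (-3.23) and Hmmr (-3.05) also bind microtubules. Tpx2, the activator of Aurora A on the spindle, was at 1783, 1999, 2053 and 1976 against 483, 447, 399 and 517 (-2.08 ± 0.09, limma adjusted p = 7.21e-09).

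All 4 cytokinesis genes were lower (median -2.57). Anln, or anillin, the scaffold of the contractile ring, was at 839, 976, 1153 and 1282 in the controls and at 91.3, 196, 75.0 and 89.7 in the DKO libraries. The DKO values lay well below the controls, with library 2 the highest (-3.31 ± 0.26, limma adjusted p = 2.43e-06). Racgap1 (-2.62) pairs with a kinesin in the centralspindlin complex, which recruits Ect2, the exchange factor that activates RhoA at the cleavage site. Ect2 was at 832, 765, 924 and 972 against 171, 238, 252 and 168 (-2.09 ± 0.15, limma adjusted p = 4.38e-07). Cit, or citron kinase, a midbody protein, was at 401, 256, 322 and 367 in the controls and at 33.0, 31.2, 32.0 and 305 in the DKO libraries. DKO library 4 lay inside the control range, so Cit was the member called lower whose groups overlapped. Its change of -2.53 ± 0.70 (limma adjusted p = 0.0179) was -3.33 without DKO library 4. The call was lost with edgeR (-1.75, adjusted p = 0.103) and without DKO library 3 (adjusted p = 0.0583), DESeq2 gave it no adjusted p, and the lowest adjusted p over the alternatives was 2.99e-07.

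Depdc1a, a mitotic gene outside these groups, was at 159, 156, 202 and 192 in the controls and at 7.77, 21.1, 12.0 and 6.82 in the DKO libraries (-3.90 ± 0.32, limma adjusted p = 1.55e-06). Of its transcript, 2421 bases are 99.67% identical to the gene Gm5596, which was at 0 in all libraries, and it was the member with such a copy at an identity of at least 95%. With Sgo2a, Esco2 and Cenpp it made up the 4 members at or below 50 in every DKO library.

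Partner genes and related forms did not always change by equal amounts. In some pairs the second gene was not a member but came from the related lists described below. For 16 pairs of partners or related forms the log2 ratio of their values was compared between groups by an exact permutation test (two-sided, 70 regroupings of 4 against 4). Gene lengths cancel in the difference between groups. Of the 16 differences 14 passed at the smallest p this design allows (0.0286, adjusted p = 0.0327 over the 16 pairs). That p means only that the ratios of the 2 groups did not overlap. Where the first gene of a pair fell and the second did not, as with Bub1 and Bub3 or Espl1 and Pttg1, this separation follows from the single genes' values. For such pairs the test adds no separate support. The adjusted p of each pair depends on how many of the other chosen pairs reach it. No share over other gene pairs was computed. Single genes without overlap made up 21.7% (DKO lower) and 21.2% (DKO higher) of all genes tested. Ndc80 and Nuf2 differed in their change by 0.09 (exact permutation p = 0.543), and Spc24 and Spc25 by -0.32 (p = 0.229 by the same exact test). A p above the threshold does not show that these partners changed alike.

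The widest gap was between Ncapg and Ncapg2, the matching subunits of condensin I and condensin II. Ncapg2 was at 2111, 2025, 2361 and 2876 in the controls and at 4284, 4320, 4163 and 3729 in the DKO libraries, a rise of 0.83 ± 0.10 (limma adjusted p = 4.37e-05) with no overlap. The log2 ratio of Ncapg to Ncapg2 was -1.67, -1.75, -1.81 and -2.12 in the controls and -5.88, -6.03, -5.67 and -5.73 in the DKO libraries, a difference of -3.99. For the other matched subunits the difference was -1.61 (Ncaph to Ncaph2) and -0.84 (Ncapd2 to Ncapd3), in each case with the condensin I gene falling more. Ncaph2 was at 2901, 3256, 3088 and 2822 against 2404, 2559, 2400 and 2579, and its change was -0.28 ± 0.06 (limma adjusted p = 0.00384). Ncapd3 was at 729, 729, 769 and 656 against 234, 240, 272 and 287 (-1.48 ± 0.10, limma adjusted p = 3.20e-07). Both were separate between groups.

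The cohesin acetyltransferases differed next most. The ratio of Esco2, the S phase enzyme, to Esco1, which acts through the cell cycle, changed by -3.60. Esco1 was at 827, 706, 706 and 554 in the controls and at 833, 770, 812 and 949 in the DKO libraries, overlapping groups that did not pass (0.28 ± 0.12, limma adjusted p = 0.0728). The ratio of Bub1 to Bub3 changed by -2.94, that of Bub1b to Bub3 by -2.27 and that of Espl1 to Pttg1 by -2.81. The ratio of Cdc20 to Fzr1, its interphase counterpart on the APC/C, changed by -2.35, and Fzr1 was at 904, 920, 864 and 940 against 833, 863, 734 and 841 (-0.15 ± 0.08, limma adjusted p = 0.130).

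The ratio of Sgo2a to Sgo1 changed by -2.44, from 0.53 to 1.04 in the controls to 0.00, -1.40, -2.54 and -2.30 in the DKO libraries. All DKO ratios lay below the controls, with library 1 apart from the other 3. Smaller gaps were found for Dsn1 to Mis12 (-1.44) and Smc2 to Smc4 (-0.53). In 3 pairs the first gene fell less than the second: Cenpl to Cenpn (1.60), Incenp to Birc5 (1.37) and Aurka to Aurkb (0.96).

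**Figure D3:**
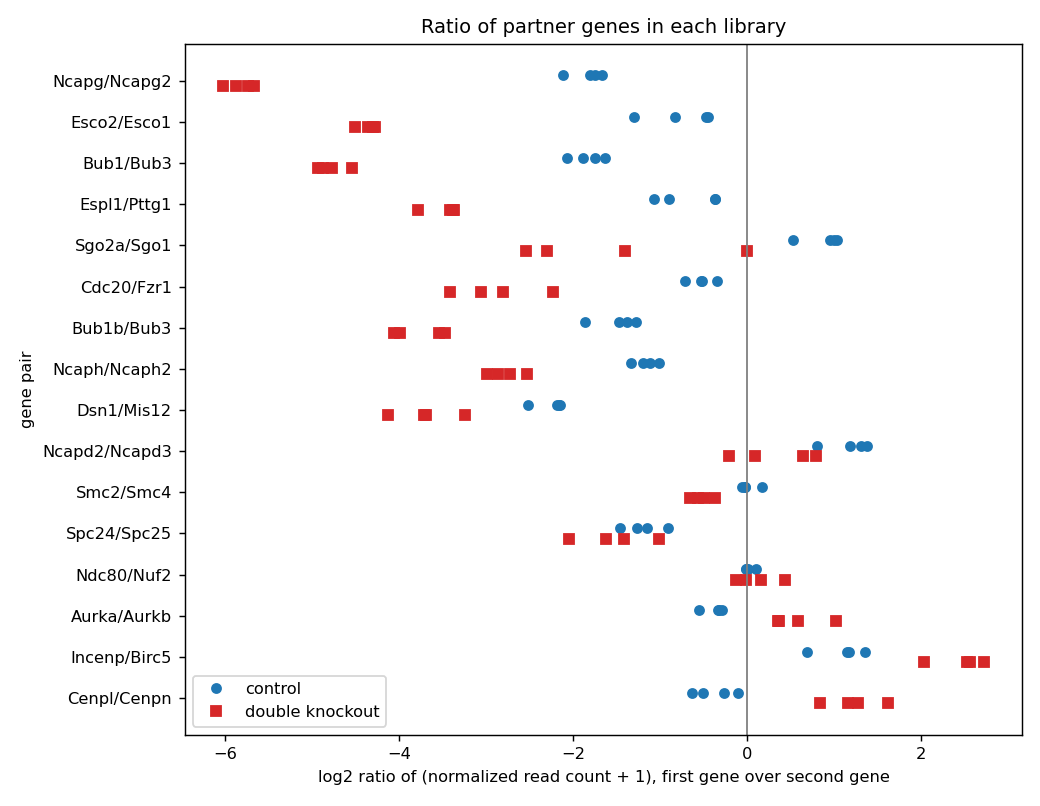
Log2 ratio of partner genes in each library, for the 16 pairs. The control and DKO points are separate in 14 pairs and overlap for Ndc80 to Nuf2 and Spc24 to Spc25, and the widest separation is for Ncapg to Ncapg2.

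Other genes of the same processes were taken as 5 lists, with 82 of 83 genes in the table, all of them tested: 60 were lower, 9 higher and 13 did not pass. These counts stand beside 23.8% lower and 22.9% higher over all genes tested. Rises in the 5 lists together, and among the other kinetochore genes, were rarer than that share. Of 27 other mitotic regulators 26 were lower (median -2.67), among them Mki67 (-3.43), the marker of cycling cells, Ccnb1, the mitotic cyclin, which went from a mean of 1214 to 151, and Melk (-2.97), a kinase of dividing cells. Ube2s, the chain-extending enzyme of the APC/C, changed by -0.35 and did not pass (limma adjusted p = 0.0615). Of 25 other kinetochore genes 21 were lower and 2 higher (median -1.60). Hjurp, the chaperone that loads CENP-A, changed by -1.41, Ska2, of the microtubule-binding SKA complex, by -2.45, and Pmf1, of the MIS12 complex, by -1.23. The rises were in Zwint (0.41 ± 0.07, limma adjusted p = 3.14e-04), a binding partner of KNL1, and in Cenpb (0.20 ± 0.06, limma adjusted p = 0.0193), which binds centromeric DNA repeats. Zwint was called in each of the 19 alternatives and Cenpb in 14.

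The cohesin ring, which separase opens, was listed with its regulators. Of 12 genes 7 were lower and 0 higher, with a median of -0.45, and the largest change was in Smc1a (-1.01 ± 0.10, limma adjusted p = 8.85e-06), a ring ATPase. Rad21, the subunit that separase cuts, changed by -0.60, and Smc3, the other ATPase, by -0.72. Of the 15 genes of the APC/C list (Fzr1 included), 4 were lower and 6 higher, with a median of 0.01, beside 23.8% lower and 22.9% higher over all genes tested. Anapc13 was called higher in each of the 19 alternatives, Anapc16 in 16, Anapc4 and Anapc11 in 12, Anapc15 in 10 and Cdc26 in 7. Anapc1, the largest scaffold subunit, changed by -0.73, Anapc5 by -0.36 and Anapc13 by 0.64 (limma adjusted p = 2.85e-04, 0.00228 and 0.0044). The rises over the 5 lists numbered 3 to 10 across alternatives, 3 without DKO library 3 and 3 without DKO library 4.

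**Figure D4:**
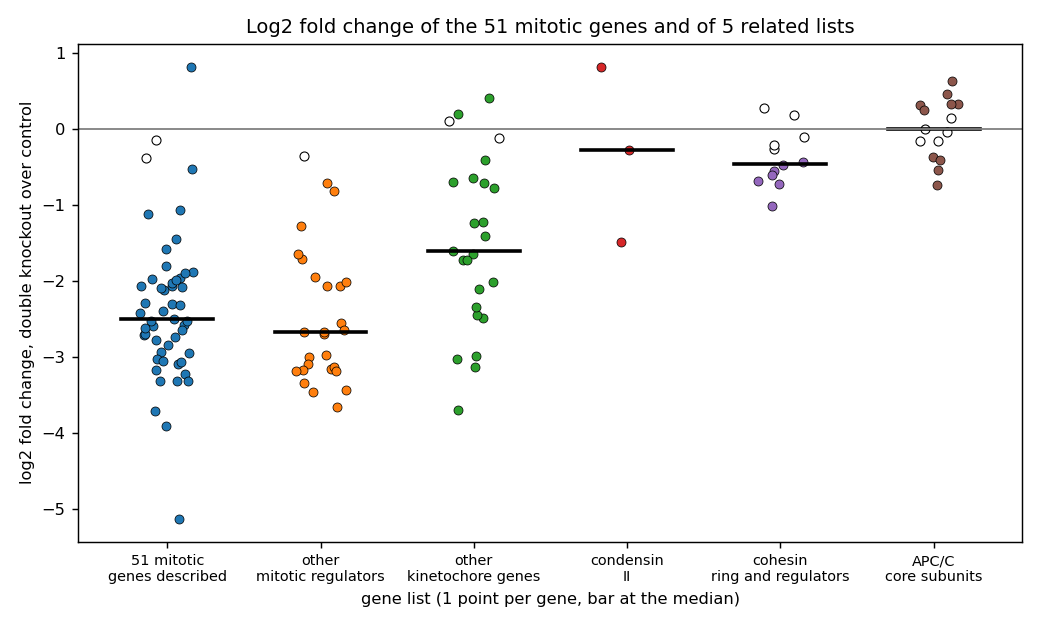
Log2 fold changes (DKO minus control) of the 51 genes and of the 5 related lists, with a bar at each median and open circles for genes that did not pass. The members and the other mitotic regulators have medians of -2.50 and -2.67, and the APC/C list lies around 0.01.

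Among libraries of a group the members were mostly close. The median coefficient of variation over the members was 10.9% in the controls, with the highest for Cenpf (40.1%), and 16.5% in the DKO libraries, with the highest for Cit (136%). With DKO libraries 1 and 2 averaged into 1 value and 3 and 4 into another, 48 members were again lower. Exon bases shared with another annotated gene were found for 14 of the 51 members, whose values are less certain without knowing how strand was used.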

How the data were processed

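Polyadenylated RNA of the 8 libraries was sequenced as read pairs of 150 bases, per the labels. Salmon 1.4.0, DESeq2 and mm10 are named in the submitters' processing notes. Annotation release, gene-level import, filters and strand use were not given in the sources used here. The deposited values are a signal: whole reads divided by a size factor per library (0.901 to 1.04), and multiplying back gave whole reads for 100% of values within 0.01.

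The 11675 genes at or above 10 in 4 or more libraries entered limma 3.58.1 (R 4.3.3, trend and robust options, two-sided) as log2(value + 1), with Benjamini-Hochberg adjustment over all of them at 0.05. The pseudocount makes the fold changes of low genes too small. Groups came from the genotypes in the labels. The pipeline was tested on simulated data. Alternatives were edgeR 4.0.16 and DESeq2 1.42.0 on recovered reads, other pseudocounts, filters and scalings, a replicate block and left-out libraries. Partner ratios used exact permutation tests.

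The members and lists, from which the pairs were drawn, were chosen with earlier results of these data known. Values in all libraries are given for the largest and smallest change of each substructure, for members that did not fall and for genes of described pairs. From each related list up to 3 genes with the smallest adjusted p and the largest change against the list's direction are named. Gene positions and lengths are from GENCODE (mm10), with 51 of 51 members matched by identifier, and promoters from RefSeq (GRCm38.p6), matched by symbol.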

Additional observations from a re-analysis of the deposited data

Results flagged for a closer look

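A library far from the other 3 of its group was looked for in 106 groups of 4 (51 members and 2 targeted genes, each in controls and DKO), by comparing its gap to the nearest value with the range of the group, against Dixon's critical value at 95%. Chance marks about 1 in 20 groups, and 9 were found. Cit was at 305 in DKO library 4, against 31.2 to 33.0 in the others. Cenpa was at 316 in DKO library 3 (others 148 to 169), and Birc5 was at 155 in the same library (others 121 to 126). Cenpk was at 38.8 in DKO library 1 (others 75.0 to 81.4), and Anln at 196 in DKO library 2 (others 75.0 to 91.3). Cenpf was at 1314 in control 1 (others 592 to 712), and Incenp at 1886 in the same library (others 2261 to 2276). Cenpn was at 293 in control 3 (others 353 to 357), and Ncaph at 1530 in the same library (others 1266 to 1305). Of these genes Cit was the one whose groups overlapped.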

How the results depend on the processing

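The count of 48 lower members was 48 under each alternative but 3: it was 50 with scaling to library totals, where Bub3 and Cenpt passed, and 47 with edgeR, where Cit did not pass, and with DESeq2, which gave Cit no adjusted p. Leaving out each library gave 48 to 48 lower members and 59 to 61 lower genes in the 5 related lists. Without DKO library 3 the member count held because Cenpt passed where Cit did not. Of the members, 48 were called in each of the 19 alternatives: Pttg1, which was higher, and all of the lower members but Cit. Among calls for single members, 963 kept their side of the threshold, 3 became calls and 2, both for Cit, were lost, and 0 reversed. Of the 16 partner ratios 14 passed under each alternative that allowed a test. Replicate numbers showed no pairing of the libraries: deviations of same-numbered libraries correlated at -0.05, 0.03, -0.04 and -0.04, and no library correlated best with its own number. These correlations could miss a small effect shared by number. With the replicate block, 48 members and 60 related genes were lower, with 4 related genes higher against 9. Leaving out a library leaves too few regroupings for the ratios to reach the threshold. Depth limits the lowest members most, such as Depdc1a at 6.82 to 21.1 in the DKO libraries.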
